A study of Mus musculus with 6 samples.

Results

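The nuclear-encoded subunits of the respiratory chain and of ATP synthase were examined in RNAseq of retina plus retinal pigment epithelium (RPE) from 5XFAD mice, a transgenic model of amyloid deposition. Members were chosen by gene symbol (Nduf, Cox, Uqcr, Atp5 and Sdh genes) and not by any measured value, though earlier results of these data were known. They numbered 82 of the 19401 genes listed in at least 1 library: 35 of complex I, 4 of complex II, 8 of complex III, 19 of complex IV and 16 of complex V. Ndufa4 and its paralogue Ndufa4l2, which carry complex I names, were placed with complex IV, where the NDUFA4 protein is found.

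The groups were control and efavirenz (EFV), with 3 libraries each, and each library was a pool of retinas from 5 to 6 mice. All animals were 9 months old, hemizygous 5XFAD mice on a B6SJL background, free of the rd1 and rd8 retinal degeneration alleles. They carry human amyloid precursor protein with the Swedish, Florida and London mutations and human presenilin 1 with a pair of mutations, both driven by the neuronal Thy1 promoter. The control mice carried the same transgenes and drank the vehicle, aqueous Tween 80. The treated mice drank EFV, labelled as 0.08 mg/kg, from 3 to 9 months of age, while the study's methods state a different daily dose. EFV is an antiretroviral drug that at low dose activates CYP46A1, the enzyme that turns cholesterol into 24-hydroxycholesterol in neurons. No wild-type mice were compared, and single animals cannot be resolved within a pool.

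The respiratory chain carries electrons from NADH (complex I) and succinate (complex II) through ubiquinone, complex III and cytochrome c to oxygen (complex IV). Complexes I, III and IV pump protons, and complex V, the ATP synthase, uses the return flow to make ATP. The catalytic cores of complexes I, III and IV and the membrane part of complex V contain subunits encoded by mitochondrial DNA, whereas the members described here are transcribed in the nucleus, translated in the cytosol and imported. In retina the chain is most concentrated in the inner segments of photoreceptors, which lie packed with mitochondria and spend much ATP on the dark current.

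The libraries held 23455167 to 24590278 counts, of which the members took 0.691% to 0.741%. Rod photoreceptor markers were abundant in every library, with a summed FPKM of 24906 to 26743 over 10 genes. The 10 RPE markers summed to 40.8 FPKM in control library 2, the lowest, to 68.3 and 66.7 in control 1 and 3, and to 65.2, 76.8 and 75.0 in the EFV libraries in order. Control library 3 stood apart by lens RNA, with 3764 FPKM over 12 lens genes against 31.2 to 174 in the other 5 libraries. The mice are described as male, yet the 4 Y-linked genes Ddx3y, Eif2s3y, Kdm5d and Uty were lowest in EFV library 3 and highest in EFV library 1. Eif2s3y was at 32.9, 30.7 and 30.4 FPKM in control libraries 1, 2 and 3 and at 40.8, 33.3 and 15.2 FPKM in EFV libraries 1, 2 and 3. The count of members past the looser limit is therefore also given without single libraries.

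Some promoters of the members carry letters that recur in genes of mitochondrial respiration. RefSeq promoters of build GRCm38.p6, which run from 250 bases before to 50 bases after a start site, were matched for 68 of the 82 members (73 promoters). The motif of nuclear respiratory factor 1, searched as GCGCA and GCGC parted by any 1 base, on both strands, occurred in 18 of the 73 promoters (24.7%), in 8.88% of the 14681 promoters of tested genes and in 4.60% of all 32851 promoters. The ETS motif CCGGAAG, the core bound by GABP (nuclear respiratory factor 2), occurred in 16 member promoters (21.9%) against 15.4% of tested genes and 8.86% of all promoters. The YY1 motif AAGATGGC occurred in 10 (13.7%) against 3.90% and 2.75%. The GC box GGGCGG went the other way relative to tested genes, at 39.7% of member promoters against 60.2%, and was at 35.7% over all promoters. TATAAA was in 8 of the 73 member promoters, in 7.50% of the promoters of tested genes and in 13.6% of all. From complex I to V, the nuclear respiratory factor 1 motif was in 24.2%, 66.7%, 20.0%, 7.14% and 33.3% of promoters. In that order ETS was in 12.1%, 66.7%, 40.0%, 21.4% and 27.8%, and YY1 in 21.2%, 0.0%, 0.0%, 0.0% and 16.7%. Complexes II and III had only 3 and 5 promoters. These motifs were searched independently and none contains another. A match describes letters in the window and not a bound site.

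The 4 members whose control and EFV libraries did not overlap (described further on) are shown with the 250 bases before their start site, 5′ to 3′ on the gene's strand, with the motifs above in capitals. Ndufb4 lies at chr16:37654369-37654618 on the minus strand, Ndufc2 at chr7:97399753-97400002 on the plus strand, Uqcrh at chr4:116075071-116075320 on the minus strand and Cox6b1 at chr7:30626115-30626364 on the minus strand.
Ndufb4: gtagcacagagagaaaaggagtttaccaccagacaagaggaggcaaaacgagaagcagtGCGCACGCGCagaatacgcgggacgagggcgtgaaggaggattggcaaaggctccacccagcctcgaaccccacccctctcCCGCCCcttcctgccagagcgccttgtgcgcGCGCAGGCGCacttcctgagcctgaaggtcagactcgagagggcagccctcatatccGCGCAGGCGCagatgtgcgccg
Ndufc2: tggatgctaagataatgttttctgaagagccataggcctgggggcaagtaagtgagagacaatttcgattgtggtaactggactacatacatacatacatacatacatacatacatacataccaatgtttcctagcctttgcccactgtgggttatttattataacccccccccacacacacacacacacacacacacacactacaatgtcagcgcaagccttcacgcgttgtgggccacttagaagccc
Uqcrh: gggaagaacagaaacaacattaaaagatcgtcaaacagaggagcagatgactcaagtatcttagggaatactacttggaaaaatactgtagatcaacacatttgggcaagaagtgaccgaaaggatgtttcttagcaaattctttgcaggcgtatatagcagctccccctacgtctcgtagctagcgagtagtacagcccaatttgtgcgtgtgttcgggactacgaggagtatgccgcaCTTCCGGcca
Cox6b1: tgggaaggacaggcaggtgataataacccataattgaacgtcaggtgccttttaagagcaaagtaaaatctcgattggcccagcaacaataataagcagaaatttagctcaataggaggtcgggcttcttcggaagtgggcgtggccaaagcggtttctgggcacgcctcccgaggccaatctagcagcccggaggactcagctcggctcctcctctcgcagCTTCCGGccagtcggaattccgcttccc
The Ndufb4 window held 3 matches to the nuclear respiratory factor 1 motif and 1 GC box. The Uqcrh and Cox6b1 windows each held 1 ETS match, read on the opposite strand, and it began 10 and 28 bases before the start site, respectively. The Ndufc2 window held none of the 5 motifs.

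The members were among the more abundant transcripts of the tissue. Levels are given as FPKM, fragments scaled by transcript length and library total, which allows comparison between genes. Their median was 86.7 FPKM against 7.66 FPKM over all tested genes, and 35 members reached 100 FPKM or more. Medians by complex were 71.5 FPKM for complex I, 56.0 for complex II, 97.7 for complex III, 90.4 for complex IV and 139 for complex V.

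In complex V, Atp5b, the catalytic beta subunit of F1, was the most abundant member of all. It was at 574, 565 and 553 FPKM in control libraries 1, 2 and 3 and at 549, 569 and 566 FPKM in EFV libraries 1, 2 and 3, above 99.7% of tested genes. Its partner Atp5a1, the alpha subunit, averaged 245 FPKM over the 6 libraries. The lowest of complex V was Atp5s, also called factor B, which is not a core subunit, at a mean of 9.16 FPKM. The 3 genes for the c subunit, which forms the rotating ring and is the same mature protein from each, divided its RNA as 25.4% ± 1.53 (Atp5g1), 35.7% ± 1.74 (Atp5g2) and 38.9% ± 2.64 (Atp5g3) of their summed FPKM in control (SD, n = 3). In EFV the shares were 24.4% ± 0.893, 35.4% ± 0.286 and 40.2% ± 0.607, so the division was alike in both groups within the spread of the libraries.

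In complex IV, Ndufa4 led with 361 to 406 FPKM over the 6 libraries and Cox8a followed with 333 to 372 FPKM, so their ranges overlapped. Below them Cox4i1 (mean 231 FPKM), Cox6a1 (226), Cox6b1 (226) and Cox5b (203) also overlapped in range. Complex IV had the widest span of levels, and 6 of its genes are tissue isoforms, expressed in muscle, testis, lung or other tissues in place of the broad form. Cox4i2, the lung isoform of subunit IV, was the exception among them, with 12.1% ± 0.190 of the Cox4i FPKM in control and 11.5% ± 0.762 in EFV (SD, n = 3). Cox7a1, the heart and muscle form, took 4.28% to 6.54% of the Cox7a FPKM over the 6 libraries, with means of 5.36% in control and 5.55% in EFV. Cox6b2, the testis form, took 3.80% ± 0.503 and 4.36% ± 0.248.

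The remaining isoforms were near the floor. Cox8b, the muscle form of subunit VIII, took 0.326% ± 0.124 of the Cox8 FPKM in control and 0.593% ± 0.133 in EFV. Ndufa4l2, a paralogue of Ndufa4 known as a target of hypoxia-inducible factor, took 0.481% ± 0.177 and 0.335% ± 0.0150 of the FPKM of the pair. Cox6a2, the muscle form of subunit VIa, had 3, 2 and 4 counts in control libraries 1, 2 and 3 and 2, 1 and 2 in EFV libraries 1, 2 and 3. Cox7b2, a testis gene, had 5, 6 and 3 counts in control and 0, 0 and 3 in EFV. These 2 genes failed the filter of 10 counts in 3 libraries, and the other 80 members were tested.

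In complex I, Ndufb8, an accessory subunit, was the most abundant at 156 to 186 FPKM, and its range overlapped that of Ndufb4 (142 to 160 FPKM). The 7 core subunits, which hold the flavin and iron-sulfur clusters or line the path to ubiquinone, had a median of 68.4 FPKM and the 28 accessory subunits 73.5. The lowest on average was Ndufs5 at 12.8 FPKM, with a spread taken up below. In complex III, Uqcrb was highest at 190 to 228 FPKM and Uqcrfs1, the Rieske iron-sulfur protein, lowest at 38.1 to 48.8 FPKM. Complex II is encoded by 4 nuclear genes alone: the flavoprotein Sdha averaged 97.0 FPKM, the iron-sulfur protein Sdhb 44.8, and the membrane anchors Sdhc and Sdhd 67.3 and 28.8.

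**Figure D1:**
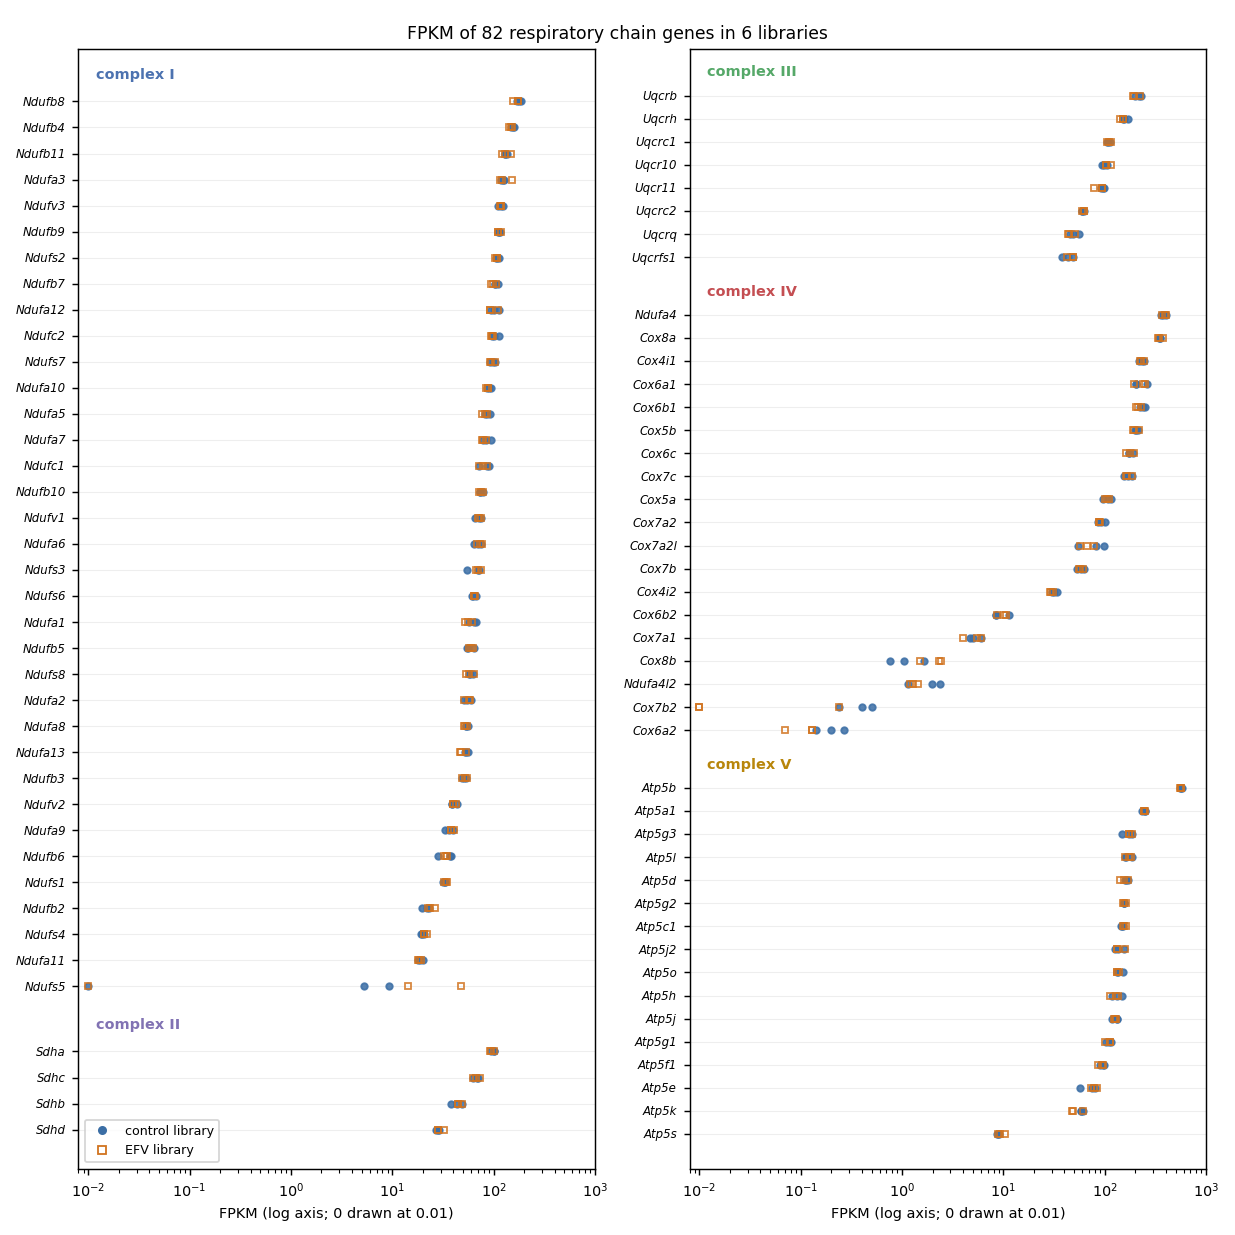
FPKM (log axis) of the 82 members in each of 6 libraries, by complex and in order of mean level; filled circles are control and open squares EFV libraries, and a value of 0 is drawn at 0.01. Most members lie between 10 and 1000 FPKM with both groups on top of each other, and Ndufs5, Cox8b, Ndufa4l2, Cox7b2 and Cox6a2 are the ones with wide scatter.

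Before the groups were compared, the libraries were. For each of the 80 tested members the log2 of its CPM (counts scaled to library size, with TMM factors) was set against its own mean over the 6 libraries. The median member was 0.08 above its mean in control library 1, 0.03 below in control 2 and 0.01 below in control 3 (0.079, -0.026 and -0.008). In EFV libraries 1, 2 and 3 the medians were -0.056, -0.025 and 0.049. Thus 68 of 80 members lay above their mean in control 1 and 61 in EFV 3, but 15 in EFV 1, so each group had a library in which the members were high.

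All 5 complexes had the same sign in control 1 (medians 0.033 to 0.089), EFV 1 (-0.075 to -0.030), EFV 2 (-0.029 to -0.010) and EFV 3 (0.025 to 0.068). The members are short transcripts, with a median length of 717 nt against 3098 nt over tested genes. The other tested genes of 1000 nt or less, without the members, had library medians of 0.054, -0.014, 0.009, -0.051, -0.025 and 0.044. The libraries are in the same order except that control 2 and EFV 2 change places, and these medians were close to those of the members.

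EFV-treated and control libraries were then compared gene by gene, to ask whether the RNA of the chain differed with treatment. No member differed at an adjusted p of 0.05 (edgeR quasi-likelihood test, Benjamini-Hochberg over 15537 genes; smallest adjusted p 0.999), and neither did any other tested gene (0.0%). DESeq2 and limma also called 0 members at that threshold. At an unadjusted p of 0.05, 2 of 80 members and 472 of 15537 genes passed. The fold changes were small: 53 members were below 0 and 27 above on the log2 scale, with a median of -0.02 (edgeR) against 0.00 over all tested genes, of which 49.5% were below 0. The median stayed below 0 under each scaling tried, at -0.022 with RLE, -0.019 with upper quartile and -0.006 with total counts. Tested genes of like length also differed from 0. Up to 500 nt their median was -0.066, against 0.005 for 12 members. From 500 to 1000 nt it was -0.035, against -0.04 for 44 members. From 1000 to 2500 nt it was -0.007, against -0.004 for 21 members, and above that 0.006, against -0.05 for 3 members.

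The precision was enough to bound most members. For 55 of the 80 the 95% interval of the fold change lay within 1.2-fold in both directions, and for 76 within 1.5-fold. For Atp5b the interval on the log2 scale was -0.11 to 0.06, and for Ndufa4 -0.13 to 0.13. In bulk tissue, fewer cells of a type and less RNA per cell cannot be told apart.

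**Figure D2:**
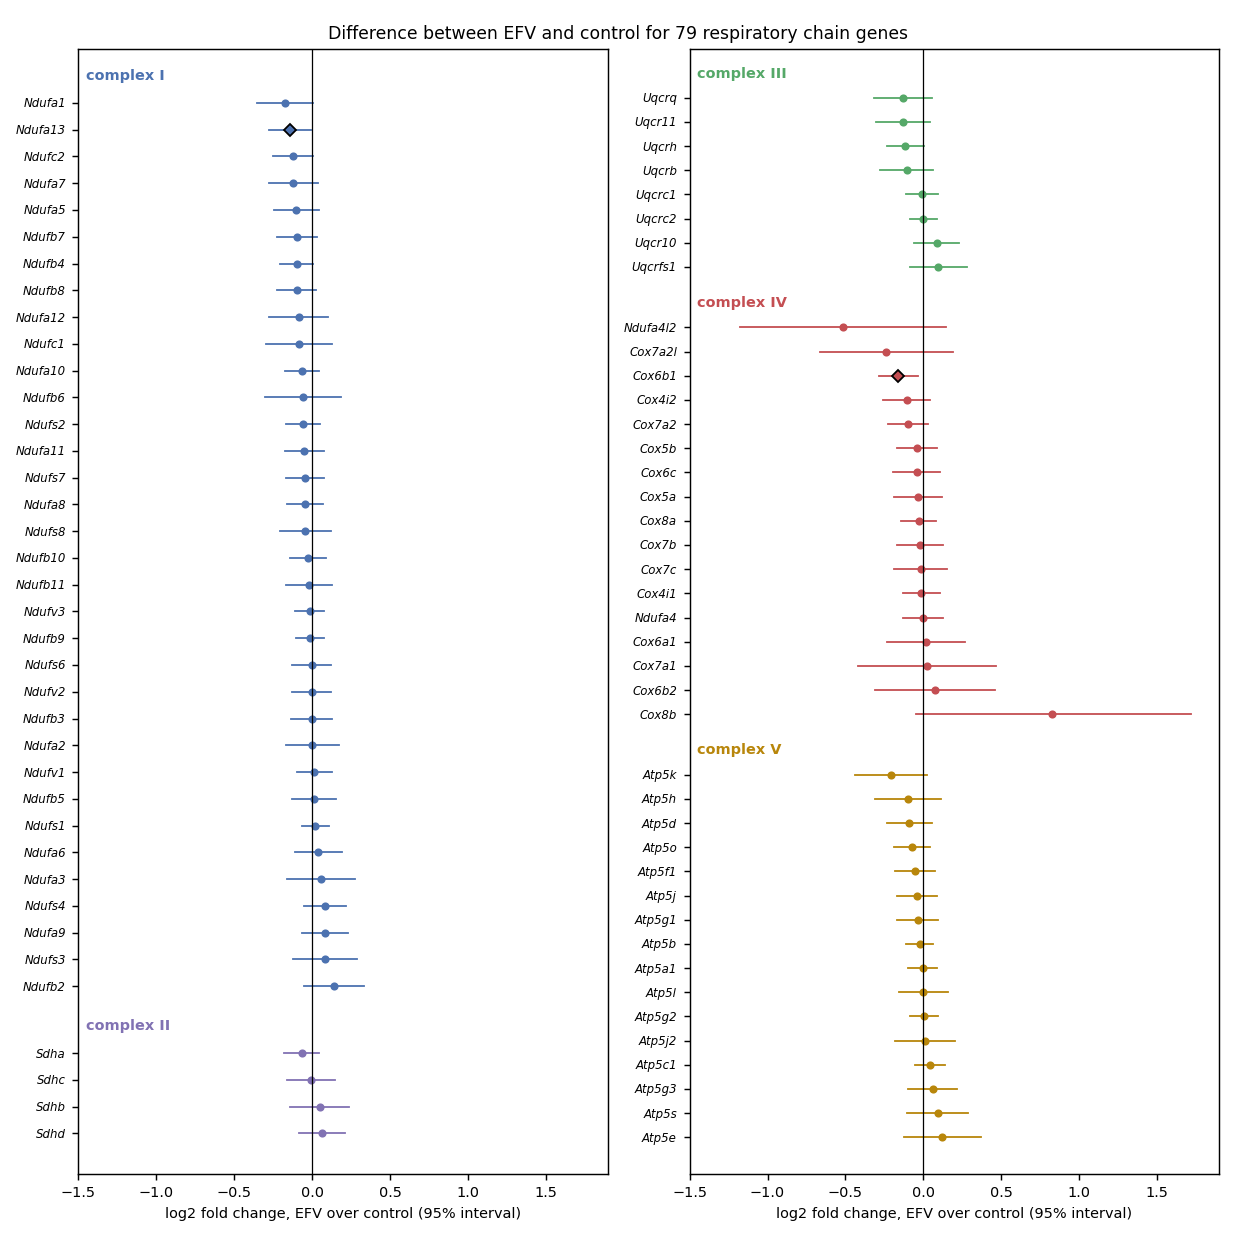
Log2 fold change (EFV over control, edgeR) of 79 tested members by complex, with 95% intervals; diamonds with a black edge are the 2 members past an unadjusted p of 0.05 with a difference of at least 7%. Most intervals cross 0 and are narrow; Ndufs5 (2.06, interval -0.77 to 4.90) is left out for its width.

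By complex, the median log2 fold change was -0.03 in complex I (24 of 35 below 0), 0.02 in complex II (2 of 4), -0.06 in complex III (5 of 8), -0.03 in complex IV (13 of 17 tested) and -0.01 in complex V (9 of 16), where total-count scaling gave 0.002. With the RPE covariate the complex II median was -0.036, and without control library 2 it was -0.003. The summed FPKM of the 82 members was 8949, 8291 and 8430 in control libraries 1, 2 and 3 and 8202, 8318 and 8898 in EFV libraries 1, 2 and 3. The mean was 8556 ± 347 in control and 8473 ± 373 in EFV (SD, n = 3), a ratio of 0.990, and the groups overlapped. The ratio of the summed FPKM was 0.990 for complex I, 1.00 for complex II, 0.976 for complex III, 0.985 for complex IV and 1.00 for complex V.

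At a looser limit, an unadjusted p of 0.05 or less with one group at least 7% above the other, 2 of 80 members were lower in EFV, Cox6b1 and Ndufa13, and 0 were higher (edgeR). Over all tested genes 1.54% passed as lower and 1.47% as higher, so the share of members was near the background. The count of lower members depended on single libraries. It was 0 without EFV library 1 and 7 without EFV library 3, the library with the least Y-linked RNA. It was also 7 without control library 2, the library with the least RPE RNA, 6 without control library 3, the one with lens RNA, 1 without control library 1 and 3 without EFV library 2. The share over all tested genes is given only for the fit with all libraries, so these counts have no background beside them. Among the controls the members were lowest in library 2 (median -0.026) and highest in library 1 (0.079). Among the EFV libraries they were highest in library 3 (0.049) and lowest in library 1 (-0.056). A fit without control 2 or EFV 3 thus drops the library furthest in the direction of the other group. A fit without control 1 or EFV 1 drops the library furthest from it. Whether the traits of the left-out libraries bear on the counts was not tested.

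Cox6b1 encodes a subunit on the intermembrane side of complex IV, where it joins the 2 monomers of the dimer (Entrez 110323, chr7:30616971-30626114). Its CPM was 106.01, 112.47 and 100.40 in control libraries 1, 2 and 3 and 90.35, 95.06 and 100.03 in EFV libraries 1, 2 and 3. The groups were apart in CPM by a narrow margin, while in FPKM EFV library 3 (227.5) was above control library 3 (223.9). The log2 fold change was -0.16 ± 0.06 (SE; edgeR unadjusted p 0.0181, adjusted p 0.999). It missed the limit without control library 2 (edgeR p 0.0716) or EFV library 1 (edgeR p 0.0697), with a length trend removed (edgeR p 0.0511) or with RPE markers as a covariate (edgeR p 0.122), while its log2 fold change stayed between -0.13 and -0.12 in these fits.

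Ndufa13, also known as GRIM-19, is an accessory subunit of complex I that is needed for its assembly (Entrez 67184, chr8:69894163-69902558). Its CPM was 67.9, 65.2 and 62.8 in control libraries 1, 2 and 3 and 55.6, 57.9 and 63.8 in EFV libraries 1, 2 and 3. EFV library 3 lay inside the control range and the other two below it. The log2 fold change was -0.14 ± 0.06 (SE; edgeR unadjusted p 0.0387, adjusted p 0.999). The call was lost without control library 1 (edgeR p 0.129), control library 2 (p 0.0756), EFV library 1 (p 0.137) or EFV library 2 (p 0.109), with total-count scaling (p 0.0712), with limma on log2(FPKM + 0.1) (p 0.0761), with the replicate number as a block (p 0.0599) and with the RPE covariate (p 0.0553). Its size stayed between -0.17 and -0.10 on the log2 scale in these fits.

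In 4 of 80 members every EFV library was below every control library in CPM, and in 0 every EFV library was above. Over all tested genes 4.18% were apart as lower and 3.95% as higher. Besides Cox6b1 these were Ndufc2, Ndufb4 and Uqcrh. Ndufc2, an accessory subunit of complex I, was at 71.5, 65.3 and 62.1 CPM in control libraries 1, 2 and 3 and at 61.7, 60.2 and 60.8 in EFV libraries 1, 2 and 3 (log2 fold change -0.12 ± 0.06 SE, edgeR unadjusted p 0.0555). Ndufb4, an accessory subunit of complex I, was at 63.1, 62.6 and 59.1 CPM in control and at 55.9, 57.9 and 58.7 in EFV (log2 fold change -0.10 ± 0.05 SE, edgeR unadjusted p 0.0569). Uqcrh, the acidic hinge protein of complex III that helps cytochrome c dock, was at 78.6, 86.1 and 76.9 CPM in control and at 75.8, 71.5 and 75.6 in EFV (log2 fold change -0.12 ± 0.05 SE, edgeR unadjusted p 0.0538). In each of these genes the nearest libraries of the 2 groups were less than 2 CPM apart. In FPKM none of the 4 kept its groups apart.

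**Figure D3:**
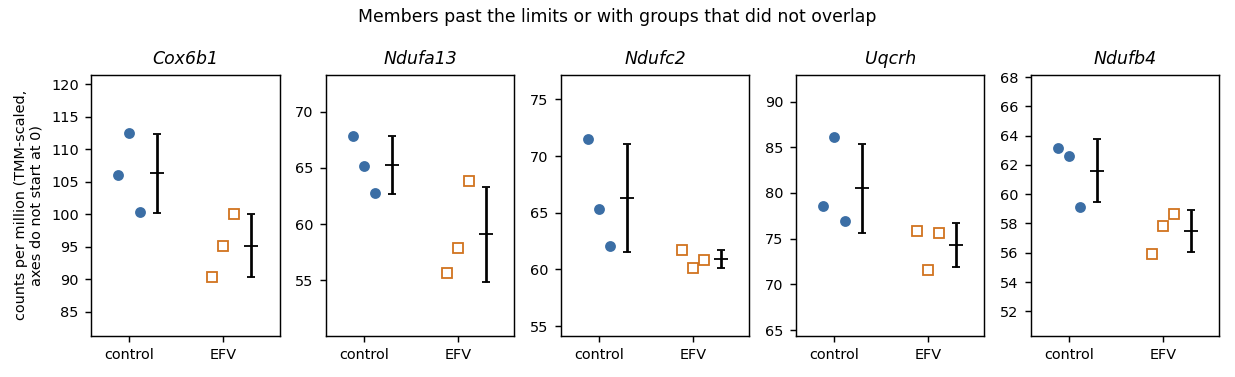
TMM-scaled CPM of the 5 members past the limits or with groups apart, by library, with the mean ± SD (n = 3) at the right of each group; the axes do not start at 0. The differences are small beside the levels, and the lowest control library lies close to the highest EFV library in each gene, or below it for Ndufa13.

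None of the members at the ends of each complex's range of fold changes passed the limit. For some of them fits without a single library are also given, with unadjusted p. Each library left out there lay nearest the other group within its own group, so the difference had to widen. In complex I the lowest was Ndufa1, an X-linked accessory subunit, with 67.3, 56.7 and 64.6 FPKM in control libraries 1, 2 and 3 and 55.7, 52.8 and 61.0 in EFV libraries 1, 2 and 3 (log2 fold change -0.18 ± 0.08 SE, edgeR p 0.0535). Without control library 2 it passed at -0.24 (edgeR p 0.0148) and without EFV library 3 at -0.23 (edgeR p 0.0254). The other X-linked members, Ndufb11 and Cox7b, were at -0.02 each.

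In complex V the lowest was Atp5k, subunit e of the membrane part, at which dimers of the enzyme meet. It had 61.6, 57.8 and 58.8 FPKM in control libraries 1, 2 and 3 and 47.0, 48.3 and 61.4 in EFV libraries 1, 2 and 3. EFV libraries 1 and 2 were below all controls, while EFV library 3 was level with the highest. The log2 fold change was -0.21 ± 0.10 (SE, edgeR p 0.0716), and without EFV library 3 it was -0.34 (edgeR p 0.00209). The highest of complex V was Atp5e, the epsilon subunit of F1, at 0.12 ± 0.11 (SE, edgeR p 0.298).

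In complex III the lowest was Uqcrq at -0.13 ± 0.08 (SE, edgeR p 0.145) and the highest Uqcrfs1 at 0.10 ± 0.08 (SE, edgeR p 0.269). Of its 5 accessory subunits Uqcrq, Uqcr11, Uqcrh and Uqcrb were between -0.13 and -0.10 and Uqcr10 was at 0.08 ± 0.06 (SE, edgeR p 0.220). The core proteins Uqcrc1 and Uqcrc2 were at -0.01 and 0.00. Complex II ranged from -0.07 ± 0.05 for Sdha (edgeR p 0.206) to 0.06 ± 0.06 for Sdhd (edgeR p 0.354), with Sdhc at -0.01 and Sdhb at 0.05. For all 4 complex II genes the 95% interval lay within 1.2-fold.

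In complex IV the ends were a pair of low genes. Ndufa4l2 was at 1.97, 1.15 and 2.39 FPKM in control libraries 1, 2 and 3 and at 1.19, 1.29 and 1.43 in EFV libraries 1, 2 and 3. Control library 2 was the lowest of all 6, so the groups overlapped. Its log2 fold change was -0.51 ± 0.29 (SE, edgeR p 0.112), and without control library 2 it was -0.76 (edgeR p 0.0155).

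Cox8b was at 1.63, 1.05 and 0.76 FPKM in control libraries 1, 2 and 3 and at 1.51, 2.31 and 2.43 in EFV libraries 1, 2 and 3. These values rest on 13, 8 and 6 counts in control and 12, 18 and 19 in EFV, with control library 1 above EFV library 1. The log2 fold change was 0.83 ± 0.39 (SE, edgeR p 0.0616). It passed without control library 1 (1.16, edgeR p 0.0266), without EFV library 1 (1.01, edgeR p 0.0372) and in limma on log2(FPKM + 0.1) (0.84, p 0.0177). Markers of striated muscle, in which Cox8b is the main isoform, summed to 5.67 to 6.95 FPKM in control and 6.99 to 7.98 FPKM in EFV over 10 genes, of which 4 passed the filter. The log2 fold changes of those tested were 0.454 (Acta1), 0.146 (Mylpf), 0.027 (Ckm) and -0.286 (Myh7), and none passed the limit. Only Acta1 had its groups apart in CPM, as higher, like 3.95% of all tested genes. The part of these markers in the Cox8b result was not tested.

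A pair of members varied between libraries far more than the rest. Over the 6 libraries the SD of log2 CPM was 2.204 for Ndufs5 and 0.33 for Cox7a2l, against a median of 0.09 over the members. Ndufs5 encodes an accessory subunit on the intermembrane side of complex I (Entrez 595136, chr4:123712710-123718186). It had 110, 0 and 62 counts in control libraries 1, 2 and 3 and 168, 0 and 558 in EFV libraries 1, 2 and 3. In each group 1 library was at 0, while EFV library 3 held most of the counts. The log2 fold change of 2.06 ± 1.25 (SE, edgeR p 0.134) had an interval of -0.77 to 4.90.

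The files also list transcribed regions without a gene name, and 1 of them carries the KEGG entry, the protein name and the length (540 nt) of Ndufs5. It had 885, 938 and 943 counts in control libraries 1, 2 and 3 and 808, 912 and 373 in EFV libraries 1, 2 and 3. Where Ndufs5 was high the region was low. Their sum was 995, 938 and 1005 in control and 976, 912 and 931 in EFV and so stayed between 912 and 1005. On the sum the log2 fold change was -0.09 ± 0.05 (SE, edgeR p 0.117), of the opposite sign to that of the named gene. These sums were formed after the values had been seen.

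Cox7a2l, also called SCAF1, links complexes III and IV into supercomplexes (Entrez 20463, chr17:83501917-83514333). It was at 81.5, 54.6 and 98.9 FPKM in control libraries 1, 2 and 3 and at 66.2, 78.0 and 57.4 in EFV libraries 1, 2 and 3, a range of 1334 to 2510 counts. A nameless region with its protein name had 913, 1224 and 354 counts in control and 1042, 733 and 1205 in EFV. The sums were 3003, 2558 and 2864 in control and 2732, 2705 and 2650 in EFV, so the spread narrowed from 1.88-fold to 1.17-fold. The log2 fold change went from -0.24 ± 0.19 (edgeR p 0.239) to -0.09 ± 0.05 (SE, edgeR p 0.0932). Atp5h, subunit d of the peripheral stalk, had 1392 to 1782 counts and its region 712 to 889, and the log2 fold change of their sum was -0.04 ± 0.06 (SE, edgeR p 0.488).

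**Figure D4:**
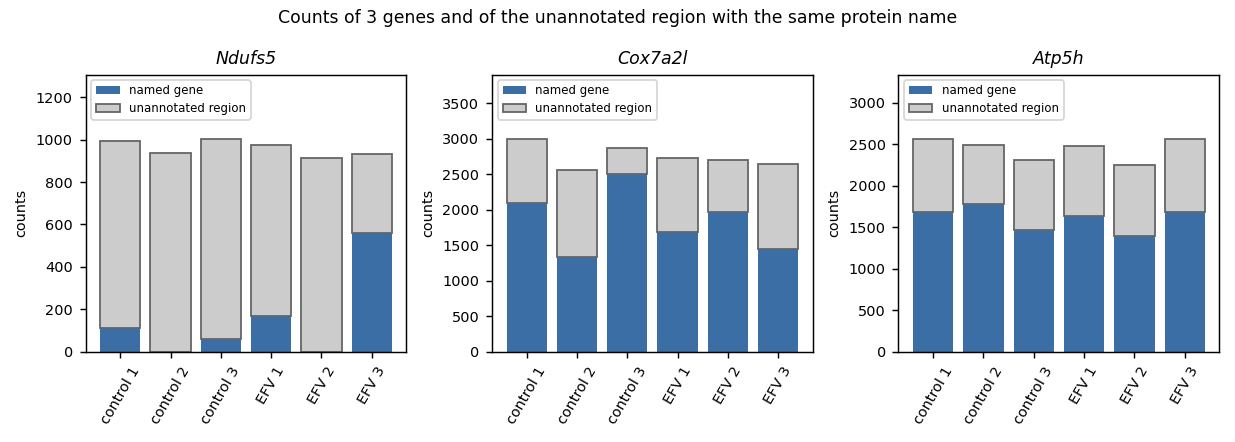
Counts of Ndufs5, Cox7a2l and Atp5h (blue) in each library, with the counts of the unnamed region that shares the protein name stacked on top (grey). For Ndufs5 the blue part ranges from 0 to 558 while the whole bar stays between 912 and 1005; for Cox7a2l the whole stays between 2558 and 3003.

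Nearly identical copies are common in these gene families. In the GENCODE M21 annotation of the same genome build, 19 of the 82 members had a transcript that matched a pseudogene at 95% identity or more over 200 bases or more, and 33 pseudogenes were involved. Of the 5 members past the limit or with groups apart, Ndufb4 had such a pseudogene. Cox7a2l matched the processed pseudogene Gm6969 at 98.0% over 342 aligned bases, with 1 mismatch and 6 gap bases. Ndufs5 matched BC002163, a processed pseudogene at chr16:42955631-42955949, at 99.4% over 319 bases with 2 mismatches. The stretch of coding sequence that holds both mismatches, coding bases 51 to 135 of Ndufs5, shows how few letters part the copies; capitals mark the bases that differ.
Ndufs5: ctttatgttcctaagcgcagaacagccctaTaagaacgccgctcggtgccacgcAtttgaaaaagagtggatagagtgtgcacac
BC002163: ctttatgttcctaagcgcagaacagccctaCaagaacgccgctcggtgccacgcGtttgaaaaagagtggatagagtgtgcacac
Counted from 1 at the 5′ end of the printed stretch, the substitutions from Ndufs5 to the pseudogene are T31C and A55G. Whether the nameless region is this pseudogene cannot be told from the tables, which give no position for it. The counting divides reads that fit several places, so values of single members with near-identical copies are uncertain. Whether that division bears on the spread of Ndufs5 or Cox7a2l was not tested.

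Genes that act with the members were counted at the same limit, which 1.54% of all tested genes passed as lower and 1.47% as higher. Of 11 further electron carriers and chain-associated genes, such as Cyc1 (cytochrome c1; 72.1 to 84.2 FPKM) and Cycs (cytochrome c; 14.7 to 16.0 FPKM), 0 passed the limit in either direction (edgeR; median log2 fold change 0.02). Of 46 tested assembly factors 0 passed, with a median of 0.00. Of the 13 enzymes of the citric acid cycle 0 passed, with a median of -0.01. At an unadjusted p of 0.05 none of these 3 lists had a gene either, against 472 of 15537 over all tested genes. In lists of this size the share over all genes would also give 0 or few calls.

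Among 16 regulators of mitochondrial biogenesis and of mitochondrial DNA, 1 passed as higher, against 1.47% of all tested genes, and 0 as lower, and the median was 0.04. Twnk, the helicase that unwinds mitochondrial DNA for replication, was at 4.26, 4.66 and 5.01 FPKM in control libraries 1, 2 and 3 and at 5.37, 5.30 and 5.68 in EFV libraries 1, 2 and 3. Every EFV library was above every control library, as in 3.95% of all tested genes. Its log2 fold change was 0.24 ± 0.08 (SE; edgeR unadjusted p 0.0188, adjusted p 0.999). Polrmt, the RNA polymerase of mitochondria, was also apart, at 9.00 to 10.2 FPKM in control and 10.4 to 10.6 in EFV, and did not pass (log2 fold change 0.11 ± 0.06 SE, edgeR p 0.0858).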

How the data were processed

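Polyadenylated RNA of 6 pools was sequenced. The authors aligned filtered reads to mm10 with Bowtie2 2.2.5 and made expected counts and FPKM per gene with RSEM 1.2.12, which divides reads that fit several genes; HISAT2 2.0.4 is also named, with no role. The deposited expected counts were rounded here. A gene not listed in a library was taken as 0. Genes with at least 10 counts in 3 libraries (15537) were tested with edgeR 4.0.16 (R 4.3.3; TMM, group only, two-sided) and Benjamini-Hochberg adjustment; the looser limits are those of the study's methods, applied to edgeR's p. An exact permutation test of 3 against 3 cannot go below 0.10. The pools were the replicates, and the sources do not say that no mouse entered more than 1 pool; the biological coefficient of variation was 0.0983. Alternatives used DESeq2 1.42.0 and limma 3.58.1. The fits were run on simulated counts with changes far larger than those of most members, so that run does not cover small changes.

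Members, gene lists and named genes (the most and least abundant and the extremes of each complex, members past a limit or apart, isoform sets and complex II) were chosen with earlier results of these data known. Copies were found with blastn 2.17.0; motifs were matched to RefSeq promoters.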

Additional observations from a re-analysis of the deposited data

How the results depend on the processing

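Of 35 named members under 19 alternatives, 574 results kept sign and side of the limit, 36 changed sign by less than 1 SE, 13 calls were lost and 32 gained, and 8 values changed sign by 1 SE or more. The count of lower members was 2, and it was 1 with total counts, 1 with limma on log2(FPKM + 0.1) or log2(FPKM + 1), 1 with a length trend removed, 8 with the RPE covariate and 5 with a rod marker covariate; the count of higher members, 0, was 1 with limma at either pseudocount and 3 with the length trend removed. Leaving out single libraries moved the lower count between 0 and 7, the higher count between 0 and 2 and the median between -0.058 and -0.007. For all alternative fits the counts of members are given without the share over all tested genes. The median was -0.001 with the length trend removed and -0.052 with the RPE covariate. By complex, medians changed sign in complex II with that covariate and without control replicate 2, in complex V with total counts and limma and in complex I with the length trend removed. The 8 values were, with the RPE covariate, Atp5e (-0.057), Atp5g3 (-0.067), Atp5h (0.037) and Sdhb (-0.089), without control replicate 2, Atp5e (-0.002; 0.218 without control replicate 1) and Atp5g3 (-0.023; 0.119), and Ndufs5 with the rod covariate (-0.357) and with the unnamed region added (-0.088, an alternative chosen after seeing the data). The cause was not tested, except that the last follows from the added counts. With the replicate number as a block, 4 members were lower and 1 was higher; same-numbered libraries correlated at 0.125, 0.083 and 0.099 and each control matched its own number best, but the labels name no shared origin. Depth limits Cox6a2, Cox7b2 and Cox8b.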

Other observations

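A pair of very abundant nameless regions in the tables carry the names of subunits that mitochondrial DNA encodes. The first, annotated as cytochrome c oxidase subunit 1 (6822 nt), held 2.82% of all counts, at 710559, 691658 and 682156 counts in control libraries 1, 2 and 3 and 653541, 672385 and 687355 in EFV libraries 1, 2 and 3. In FPKM it was at 4250 ± 109 in control and 4071 ± 131 in EFV (SD, n = 3). Its log2 fold change was -0.08 ± 0.03 (SE, edgeR unadjusted p 0.0306, adjusted p 0.999), less than 7% apart. In CPM its groups were apart as lower in EFV, as in 4.18% of all tested genes. In FPKM they overlapped, with control library 3 at 4135 and EFV library 3 at 4199. The second, annotated as NADH-ubiquinone oxidoreductase chain 4 (8027 nt), held 2.79% of counts, at 3539 ± 123 FPKM in control and 3453 ± 164 in EFV, and its groups overlapped (log2 fold change -0.05 ± 0.04 SE, edgeR p 0.215). Each region is longer than the gene it is named for, so single mitochondrial subunits cannot be read from them.

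Within the citric acid cycle, Dld, the lipoamide dehydrogenase shared by several complexes, was at 40.9 to 42.6 FPKM in control and 44.4 to 45.7 in EFV, with the groups apart, as 1 of 13 genes of that list (log2 fold change 0.09 ± 0.04 SE, edgeR unadjusted p 0.0511). Among 46 tested assembly factors, 2 were apart in CPM as higher and 2 as lower, against 3.95% and 4.18% of all tested genes. Bcs1l, which inserts the Rieske protein into complex III, was at 6.03 to 7.43 FPKM in control and 7.46 to 7.92 in EFV (log2 fold change 0.13 ± 0.09 SE, edgeR p 0.164). Sdhaf4, a maturation factor of Sdha, was at 17.4 to 21.9 FPKM in control and 22.0 to 24.4 in EFV (0.16 ± 0.10 SE, edgeR p 0.153). Atpaf1, an assembly factor of F1, was at 12.4 to 12.7 FPKM in control and 11.9 to 12.2 in EFV (-0.07 ± 0.05 SE, edgeR p 0.238). Coa4, a factor of complex IV, was at 5.40 to 5.55 FPKM in control and 5.31 to 5.45 in EFV (-0.04 ± 0.13 SE, edgeR p 0.755). Its groups were apart in CPM but overlapped in FPKM.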
